A study of Mus musculus with 9 samples.

Results

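IL-10 is the main cytokine with which Mϕs hold back inflammation. The genes described here are its ligand gene Il10, the receptor chains Il10ra and Il10rb, the transcription factor gene Maf, which drives Il10, and Nfil3, Sbno2 and Zfp36, which act downstream. These 7 genes were chosen by name for their place in the pathway, out of 53379 genes in the deposited table. No measured value was part of that rule, but earlier results of these data were known when it was made. All 7 passed the filter for testing, a mean of at least 0.5 FPKM over the libraries, which 12824 genes passed. FPKM are fragments scaled to the length of a gene's exons and to the depth of the library.

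The cells were Mϕs grown from the bone marrow of C57BL/6 mice with the growth factor CSF-1, and the comparison asks how IL-4 and IL-6 change their expression program. Control Mϕs received CSF-1 alone at 10 ng/ml throughout, for 3 days and then 4 more. The IL-4 group also received IL-4 at 10 ng/ml during those 4 days, and the IL-6 group received IL-6 at 100 ng/ml. The marrow came from 3 mice, and each group has 3 libraries, numbered #1, #2 and #3. These doses and times are those of the library labels, and other text of the study states different ones. All groups thus carry CSF-1, so Mϕs without it were not measured.

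IL-10 binds a receptor of 2 chains. IL-10Rα, from Il10ra, is specific to it, while IL-10Rβ, from Il10rb, is shared with other cytokines of the family such as IL-22 and the type III interferons. The kinases JAK1 and TYK2 sit on these chains and activate STAT3, through which most of the response runs. IL-6 also signals through STAT3, from the receptor chain gp130, and its response is cut short by SOCS3. IL-4 signals mainly through STAT6. Among the effectors, NFIL3 represses Il12b, SBNO2 acts as a co-repressor of inflammatory genes, and tristetraprolin, from Zfp36, binds AU-rich elements in mRNAs and speeds their decay.

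AU-rich heptamers of the kind that tristetraprolin binds lie in the mRNAs of 4 of the 7 genes, Il10 and Zfp36 among them, and sites of each are shown here. The heptamer TATTTAT was searched on the sense strand of the longest 3′ untranslated region of each gene, with overlapping matches counted. It lies in 27.6% of the 3′ untranslated regions of 21020 coding genes. Each site is written 5′ to 3′ from GRCm38 with the heptamer in capitals.
Il10, first site, chr1:131024390-131024408, plus strand: ccgaaaTATTTATtacctc
Il10, second site, chr1:131024423-131024441, plus strand: ccattcTATTTATtcactg
Il10, next site, chr1:131024486-131024504, plus strand: ttacagTATTTATtatttt
Il10, last site, chr1:131024832-131024850, plus strand: gtttgtTATTTATaaccac
Il10ra, overlapping pair, chr9:45254128-45254146, minus strand: aaccttTATTTATTTATtt
Sbno2, single site, chr10:80057048-80057066, minus strand: tctatgTATTTATaatgaa
Zfp36, first site, chr7:28376971-28376989, minus strand: gcccttTATTTATgacgac
Il10 has 4 heptamers in 706 bases of 3′ untranslated region, starting 128, 161, 224 and 570 bases after the stop codon. Zfp36 has 3 in 774 bases, and Il10ra has 3 in 1693 bases, all of them within 20 bases of one another. Sbno2 has 1 in 424 bases. Il10rb, Maf and Nfil3 have 0, although at 4316 bases Maf has by far the longest region of the 7. Of 3′ untranslated regions within 10% of their length, 19.8% hold the heptamer for Il10, 37.1% for Il10ra, 19.2% for Il10rb, 62.9% for Maf, 9.24% for Nfil3, 9.99% for Sbno2 and 19.3% for Zfp36. A match is a description of the letters and shows no binding.

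**Figure D1:**
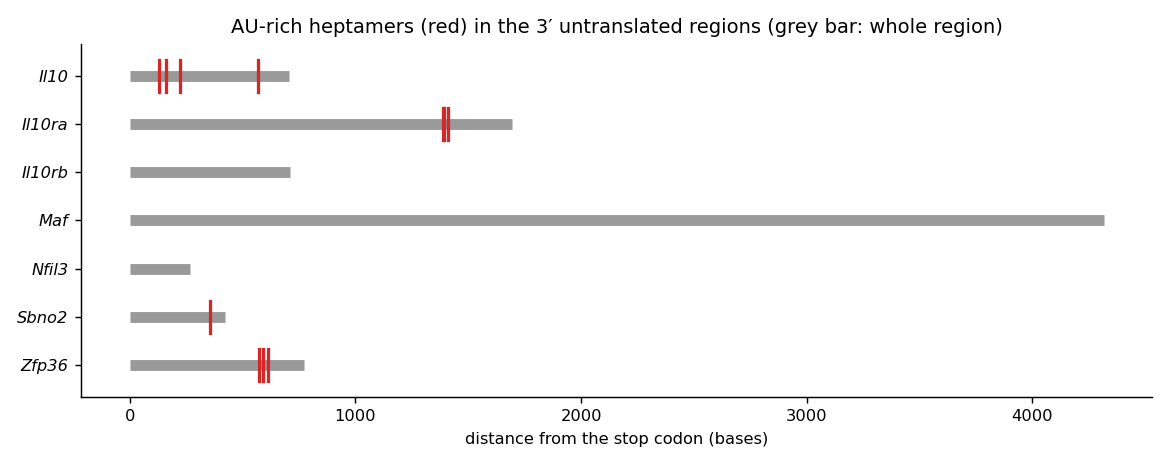
AU-rich heptamers (red ticks) along the longest 3′ untranslated region of each gene (grey bar), with the distance from the stop codon in bases on the x axis. Il10 has 4 spread over its region, Il10ra and Zfp36 have 3 each in a tight group, Sbno2 has 1, and Il10rb, Maf and Nfil3 have none.

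STAT factors bind palindromes in which TTC and GAA are 3 bases apart, and promoters are shown where a window was at hand and held this motif. RefSeq promoter windows on GRCm38.p6, each reaching from before a start to just after it, matched 3 of the 7 genes with 5 windows. The motif TTCNNNGAA, which reads the same on both strands, lies in 8.3% of 32851 such windows of 300 bases. It is in capitals in the windows that hold it, all on the minus strand.
Sbno2, chr10:80101138-80101437: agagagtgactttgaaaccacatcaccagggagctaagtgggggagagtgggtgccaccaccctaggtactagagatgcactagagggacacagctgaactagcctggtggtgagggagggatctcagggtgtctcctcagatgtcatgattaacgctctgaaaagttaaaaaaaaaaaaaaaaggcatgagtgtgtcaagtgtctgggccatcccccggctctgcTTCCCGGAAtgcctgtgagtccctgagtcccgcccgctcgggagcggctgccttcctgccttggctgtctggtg
Sbno2, chr10:80102653-80102952: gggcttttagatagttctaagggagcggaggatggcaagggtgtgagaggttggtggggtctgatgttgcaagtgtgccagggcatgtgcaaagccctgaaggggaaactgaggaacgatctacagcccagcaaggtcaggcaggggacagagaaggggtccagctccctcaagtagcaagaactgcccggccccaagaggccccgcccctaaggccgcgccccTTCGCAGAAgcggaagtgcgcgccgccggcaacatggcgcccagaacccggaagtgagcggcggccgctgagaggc
Zfp36, chr7:28379179-28379478: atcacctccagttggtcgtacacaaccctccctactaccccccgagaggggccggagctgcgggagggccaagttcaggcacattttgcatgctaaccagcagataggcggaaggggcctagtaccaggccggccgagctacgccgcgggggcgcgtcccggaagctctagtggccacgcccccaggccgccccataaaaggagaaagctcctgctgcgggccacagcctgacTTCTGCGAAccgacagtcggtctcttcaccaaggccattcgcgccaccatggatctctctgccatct
The motif starts 24 and 26 bases before the start in the Sbno2 windows and 17 bases before it in Zfp36. A further Sbno2 window, chr10:80075390-80075689, and the window of Nfil3, chr13:52980990-52981289, hold 0. The same palindrome with 4 bases between its arms, the spacing that STAT6 prefers, lies in 6.95% of all windows and in 0 of these 5. These letters say nothing of whether a factor was bound in these cells.

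The libraries held between 29988160 and 39909571 fragments each, read back from the steps of the FPKM, so counting error is small for all members but Il10. Mϕ markers were high in every library: the summed FPKM of 10 Mϕ genes was 16800 to 19100 in control, 6240 to 7270 in IL-4- and 20600 to 21700 in IL-6-treated Mϕs. Granule and calprotectin genes of neutrophils were also present, 8 genes summing to 4730 to 8430, 2130 to 3980 and 7860 to 10900 FPKM. Between IL-4 and control, 5 of the 10 Mϕ genes and 7 of the 8 neutrophil genes passed the threshold given in the next paragraph as lower. So did 8.89% of all tested genes. Without IL-4 #3, Adgre1, Csf1r and the neutrophil gene Mpo did not pass. With the set of libraries described next as a term, Adgre1, Csf1r, Mpo, Ngp, S100a8 and S100a9 did not, which left 3 of each list. The libraries divide by 13 intestinal Paneth and goblet cell genes, at 26.2 to 39.4 summed FPKM in the 3 control libraries and IL-4 #1 and at 0.0139 to 0.175 in the other 5. Control and IL-6 thus lie in different sets, and a term for the set in the fit rests on the IL-4 libraries alone. IL-4 #3 stands apart too, with a median-ratio size factor of 0.766 where the other libraries have 0.990 to 1.07. The part of any of these in the results was not tested. In bulk RNA, fewer cells of a type and less RNA per cell cannot be told apart.

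Unless an alternative is named, every log2 fold change comes from a single limma fit to log2(FPKM + 0.1). Its p-values were adjusted by Benjamini-Hochberg across its 12824 genes. Folds given without log2, other than those from fragments, are ratios of mean FPKM. They need not match the log2 fold changes, which are differences between means of logs. A gene passed the threshold if this adjusted p was below 0.05 and its log2 fold change reached 1 in either direction. The added 0.1 shrinks the fold changes of weakly expressed genes such as Il10, and each SE belongs to the log2 fold change before it. Against control, 4 of the 7 genes passed with IL-4, where 13.9% of all tested genes passed. Nfil3 was higher, as were 5.02% of all genes, and Il10, Il10ra and Maf were lower, as were 8.89%. With IL-6, 2 of 7 passed, where 5.38% of all genes passed. They were Nfil3 and Sbno2, both higher, and 3.49% of all genes passed as higher and 1.89% as lower. Both comparisons use the same 3 control libraries. Between IL-6 and IL-4, 4 of 7 passed, where 20.4% of all genes passed. They were Il10, Il10ra, Maf and Sbno2, all higher with IL-6, as were 13.6% of all genes, while 6.82% were lower. The median log2 fold change of the 7 was −0.61 with IL-4 and 0.59 with IL-6, beside −0.20 and 0.00 over all genes. Rescaling each library by its median ratio took the median of all genes for IL-4 to −0.01, and the genes passing there from 644 higher and 1140 lower to 834 higher and 874 lower. With the set as a term, 1111 of all genes passed with IL-4 in place of 1784, and 187 with IL-6 in place of 690. Between IL-6 and IL-4, 3274 passed in place of 2613.

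**Figure D2:**
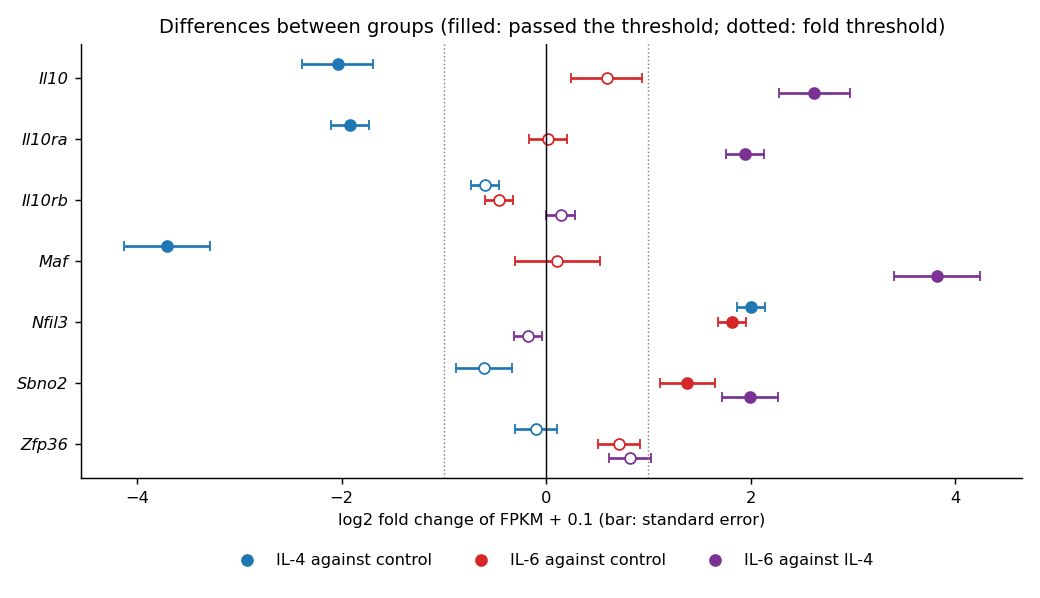
Log2 fold change of FPKM + 0.1 with its standard error (x axis) for each of the 7 genes (y axis) in 3 comparisons of 3 libraries with 3, filled where the gene passed the threshold and with dotted lines at the fold threshold. Il10, Il10ra and Maf lie far below 0 for IL-4 against control and far above it for IL-6 against IL-4, while Nfil3 lies near 2 for both cytokines against control.

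Il10 (ENSMUSG00000016529.5, chr1:131019845-131024974, plus strand) encodes the cytokine itself and was the least abundant of the 7 genes in every group. Control #1, #2 and #3 had 0.940, 1.35 and 0.936 FPKM. IL-4 #1, #2 and #3 had 0.313, 0.0756 and 0.210 FPKM, and IL-6 #1, #2 and #3 had 1.66, 1.33 and 1.99 FPKM. All IL-4 libraries were lower than all others, while the lowest IL-6 library lay just under the highest control library. The counts behind these values were small, with 139 fragments over the control, 28 over the IL-4 and 213 over the IL-6 libraries, and IL-4 #2 had only 3, the number taken as the floor of detection.

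The mean of Il10 was 1.08 ± 0.237 FPKM (SD, n = 3) in control and 0.200 ± 0.119 FPKM (SD, n = 3) in IL-4-treated Mϕs, 5.39-fold lower, with a log2 fold change of −2.04 (SE 0.346, limma adjusted p = 0.00372). From the fragments alone the fold was 5.18, with an exact 95% binomial interval of 3.43 to 8.08 that covers counting error only. The call was lost once the set entered the fit (log2 fold change −1.49, limma adjusted p = 0.0706) and with a pseudocount of 1 (−0.79), and it held without any single library. Within the set that holds all controls, IL-4 #1 was 3.44-fold lower than the control mean and outside the control range.

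In IL-6-treated Mϕs the mean of Il10 was 1.66 ± 0.328 FPKM (SD, n = 3), 1.55 times that of control. The difference did not pass (log2 fold change 0.59, SE 0.346, limma adjusted p = 0.402; exact permutation test, two-sided, p = 0.2), although 8 of the 9 pairs of libraries were higher with IL-6. A term for the set raised the log2 fold change to 1.41 (limma adjusted p = 0.245). The fragments gave 1.56-fold with an interval of 1.25 to 1.95, so counting error alone leaves 1 outside the interval, while the spread between libraries does not separate the groups. Between the treatments Il10 was 8.33-fold higher with IL-6 (log2 fold change 2.62, SE 0.346, limma adjusted p = 0.000748) and passed under all 20 alternatives that gave a value. Over the IL-6 libraries and IL-4 #2 and #3, which share a set, the fold was 11.6. An exact permutation test of 3 libraries against 3 cannot give a two-sided p below 0.1.

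Other cells in marrow cultures also make IL-10, among them mast cells and B cells. Of 8 mast cell and basophil genes, 6 were tested. With IL-4, 4 were higher and 1, Kit, lower, beside 5.02% and 8.89% of all genes, while 0 passed with IL-6. With the set as a term Cpa3 and Fcer1a passed, and Mcpt8, Ms4a2 and Kit did not. Kit did not pass without IL-4 #3 either. Their summed level was 8.4 to 16.2 FPKM in control, 31.0 to 49.6 FPKM in IL-4- and 6.74 to 14.6 FPKM in IL-6-treated Mϕs, with Mcpt4 at 0 in all libraries and Cma1 at 0 in control and IL-6. The 6 B cell genes summed to 27.9 to 50.5, 22.9 to 31.2 and 19.8 to 33.1 FPKM, and 0 of 5 tested passed. The share of Il10 from each cell type was not tested.

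**Figure D3:**
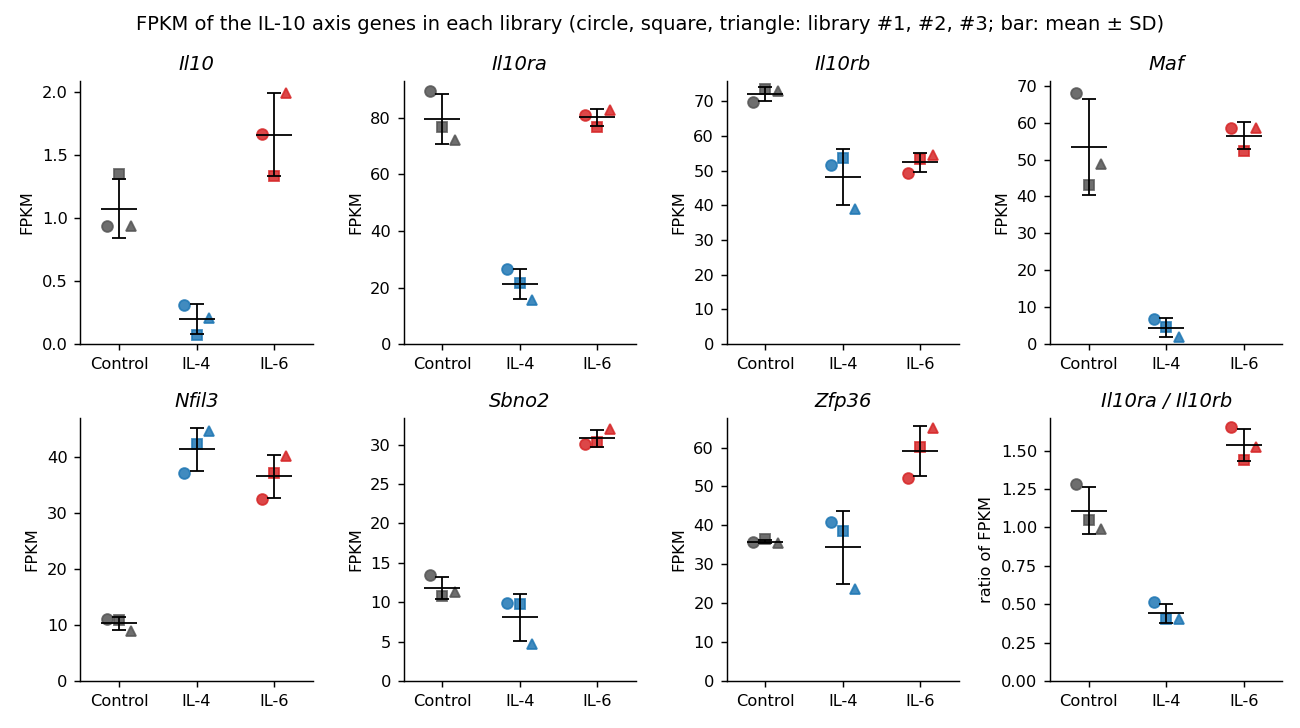
FPKM (y axis, linear from 0) of each gene in each library by group, with the mean and SD over 3 libraries as bars, symbols for libraries #1, #2 and #3, and the ratio of Il10ra to Il10rb in the last panel. The IL-4 libraries lie below all others in Il10, Il10ra and Maf, both cytokine groups lie above control in Nfil3, and the IL-6 libraries lie above all others in Sbno2 and Zfp36.

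Both receptor chains had lower values than control with IL-4, by more for Il10ra, and Il10rb had lower values with IL-6 too. Il10ra (ENSMUSG00000032089.16, chr9:45253837-45269149, minus strand), the chain specific to IL-10, had 89.3, 76.9 and 72.2 FPKM in control, 26.5, 21.7 and 15.8 FPKM in IL-4- and 81.1, 76.9 and 82.7 FPKM in IL-6-treated Mϕs. Every IL-4 library had less than 27 FPKM and every other library more than 72, with control and IL-6 overlapping. The mean fell from 79.5 ± 8.82 to 21.3 ± 5.35 FPKM (SD, n = 3 each) with IL-4, 3.72-fold, with a log2 fold change of −1.92 (SE 0.186, limma adjusted p = 0.000218). It passed under all 21 alternatives, between −2.09 and −1.58. IL-6 gave a log2 fold change of 0.02 (SE 0.186, limma adjusted p = 0.964), and between IL-6 and IL-4 it was 1.94 (limma adjusted p = 0.000143), a fold of 3.76.

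Il10rb (ENSMUSG00000022969.13, chr16:91406164-91425834, plus strand), the shared chain, had 69.7, 73.5 and 72.8 FPKM in control, 51.6, 53.7 and 38.9 FPKM in IL-4- and 49.2, 53.4 and 54.4 FPKM in IL-6-treated Mϕs. The control libraries lay above all others, and the treated groups overlapped. Against control the IL-4 libraries gave a log2 fold change of −0.60 (SE 0.138, limma adjusted p = 0.0148) and the IL-6 libraries −0.46 (SE 0.138, limma adjusted p = 0.0864), so neither reached the fold threshold. Without IL-4 #3 the SE of the IL-6 difference was 0.0697 and its limma adjusted p 0.00287, while a term for the set gave an adjusted p of 0.437. For the IL-4 difference the limma adjusted p was 0.00289 without IL-4 #3 and 0.183 with the set term, at −0.45 and −0.48. Without Control #2 or #3 it was 0.0539 and 0.0574. Its exons share 569 of 3808 bases with Gm21970 on the same strand, which had at most 0.0649 FPKM.

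The ratio of Il10ra to Il10rb within a library does not depend on how libraries are scaled. It was 1.28, 1.05 and 0.992 in control, 0.513, 0.404 and 0.406 in IL-4- and 1.65, 1.44 and 1.52 in IL-6-treated Mϕs. No groups overlapped: the IL-4 libraries had the lowest ratios and the IL-6 libraries the highest. The means were 1.11 ± 0.153, 0.441 ± 0.0623 and 1.54 ± 0.106 (SD, n = 3 each), and each pair of groups had p = 0.1 in the exact permutation test, the smallest it can give. IL-4 #1 had the highest ratio of the IL-4 libraries, and it too lay under all control libraries of its set.

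Maf (ENSMUSG00000055435.6, chr8:115682942-115707794, minus strand), a bZIP factor that binds and activates the Il10 promoter in Mϕs, had 68.0, 43.2 and 48.7 FPKM in control Mϕs. With IL-4 it had 6.91, 4.62 and 1.84 FPKM, and with IL-6 58.4, 52.3 and 58.6 FPKM. No IL-4 library came near the others, while control and IL-6 overlapped. The mean was 53.3 ± 13.0 FPKM in control and 4.45 ± 2.54 FPKM with IL-4 (SD, n = 3 each), 12.0-fold lower, the largest difference from control among the 7 genes with either cytokine. The log2 fold change was −3.71 (SE 0.418, limma adjusted p = 0.000468), and Maf passed under all 21 alternatives, from −4.12 to −2.90. Within the first set IL-4 #1 was 7.72-fold lower than the control mean.

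With IL-6 the mean of Maf was 56.5 ± 3.57 FPKM (SD, n = 3) and the log2 fold change 0.11 (SE 0.418, limma adjusted p = 0.906), a difference smaller than the spread of the control libraries. The fit with the set as a term gave 1.32 (limma adjusted p = 0.27). Between the treatments Maf was 12.7-fold higher with IL-6 (log2 fold change 3.82, limma adjusted p = 0.000286), and 17.5-fold over libraries of the same set. Gm15655 overlaps 440 of its 8241 exon bases on the other strand and is listed at 0.

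Nfil3 was the only one of the 7 genes that passed with both cytokines. It lies at chr13:52967209-52981073 on the minus strand (ENSMUSG00000056749.7) and encodes a bZIP repressor that IL-10 induces. It had 11.0, 10.9 and 8.96 FPKM in control, 37.3, 42.4 and 44.7 FPKM in IL-4- and 32.6, 37.2 and 40.2 FPKM in IL-6-treated Mϕs. All treated libraries lay above all controls, and the treated groups overlapped each other. From 10.3 ± 1.15 FPKM in control (SD, n = 3) the mean rose 4.03-fold with IL-4, to 41.5 ± 3.82 FPKM, and 3.56-fold with IL-6, to 36.6 ± 3.82 FPKM (SD, n = 3 each). The log2 fold changes were 2.00 (SE 0.136, limma adjusted p = 2.92e-05) and 1.82 (SE 0.136, limma adjusted p = 0.000201), and Nfil3 passed under all 21 alternatives in both. IL-6 against IL-4 gave −0.18 (SE 0.136, limma adjusted p = 0.315). In the set that holds the controls, IL-4 #1 had 3.62 times the control mean.

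Sbno2 (ENSMUSG00000035673.10, chr10:80056992-80105571, minus strand), a DExD/H-box helicase family gene induced by IL-10 through STAT3, had 13.4, 10.8 and 11.3 FPKM in control, 9.88, 9.78 and 4.65 FPKM in IL-4- and 30.0, 30.3 and 32.1 FPKM in IL-6-treated Mϕs. The 3 groups did not overlap, with IL-6 highest and IL-4 lowest. With IL-6 the mean rose 2.6-fold, from 11.8 ± 1.38 to 30.8 ± 1.09 FPKM (SD, n = 3 each), with a log2 fold change of 1.38 (SE 0.272, limma adjusted p = 0.0187). It passed in 15 of 21 alternatives. The call was lost without Control #2 or #3 or without any one IL-6 library, at limma adjusted p of 0.0807, 0.0817, 0.0692, 0.0737 and 0.0793. The size moved little there, between 1.31 and 1.40, and without IL-4 #3, which lay far below its group, the limma adjusted p was 7.46e-05. A term for the set raised the log2 fold change to 1.92 and the limma adjusted p to 0.105.

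IL-4 gave Sbno2 a log2 fold change of −0.61 (SE 0.272, limma adjusted p = 0.142), and −0.26 without IL-4 #3. Against IL-4, IL-6-treated Mϕs had 3.8-fold more Sbno2 (log2 fold change 1.99, SE 0.272, limma adjusted p = 0.000933). Sbno2 passed there under all 21 alternatives, between 1.51 and 2.17, with 1.64 without IL-4 #3. The fold was 4.27 over libraries of the same set, which keeps IL-4 #3 and leaves out IL-4 #1.

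Zfp36 (ENSMUSG00000044786.6, chr7:28376784-28380253, minus strand), the gene of tristetraprolin, had 35.6, 36.4 and 35.5 FPKM in control, 40.9, 38.6 and 23.6 FPKM in IL-4- and 52.1, 60.2 and 65.0 FPKM in IL-6-treated Mϕs. The IL-6 libraries lay above all others, and IL-4 #1 and #2 lay above and IL-4 #3 below every control. The mean of 59.1 ± 6.48 FPKM with IL-6 was 1.65 times the 35.8 ± 0.483 FPKM of control (SD, n = 3 each), with a log2 fold change of 0.71 (SE 0.206, limma adjusted p = 0.0775). Without IL-4 #3 the limma adjusted p was 0.00124 at the same fold, still under the fold threshold. A term for the set gave 1.15 (limma adjusted p = 0.163). IL-4 gave −0.10 (SE 0.206, limma adjusted p = 0.747), and this turned to 0.15 without IL-4 #3. Against IL-4 it was 0.82 (SE 0.206, limma adjusted p = 0.0172) and again under the fold threshold. Gm44710 overlaps 125 of its 3470 exon bases on the other strand, with at most 1.61 FPKM.

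FPKM are per length, so the genes can be ranked within a group. That length covers all annotated exons of a gene, and the order depends on it. It was 3470 bases for Zfp36, the whole span of the gene, 8241 for Maf and 10715 for Sbno2. Ranks by the length of the mRNA expressed in these cells were not tested. In control Mϕs, Il10ra and Il10rb were highest and overlapped, followed by Maf and then Zfp36, each apart from the next. Sbno2 and Nfil3 came after, overlapping, and Il10 was last. In IL-4-treated Mϕs, Il10rb, Nfil3, Zfp36 and Il10ra formed the upper end, each overlapping its neighbour, and Sbno2 and Maf overlapped below them. In IL-6-treated Mϕs, Il10ra was highest, Zfp36, Maf and Il10rb overlapped their neighbours, and Nfil3, Sbno2 and Il10 followed one by one without overlap. Maf thus ranked the third in control and the sixth with IL-4, and Nfil3 the sixth in control and the second with IL-4. Groups of libraries without overlap occurred for 6 of 7 genes with IL-4 and 4 of 7 with IL-6 against control, and for 5 of 7 between IL-6 and IL-4. Of all tested genes, 40.3%, 43.2% and 56.9% had none in these comparisons.

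**Figure D4:**
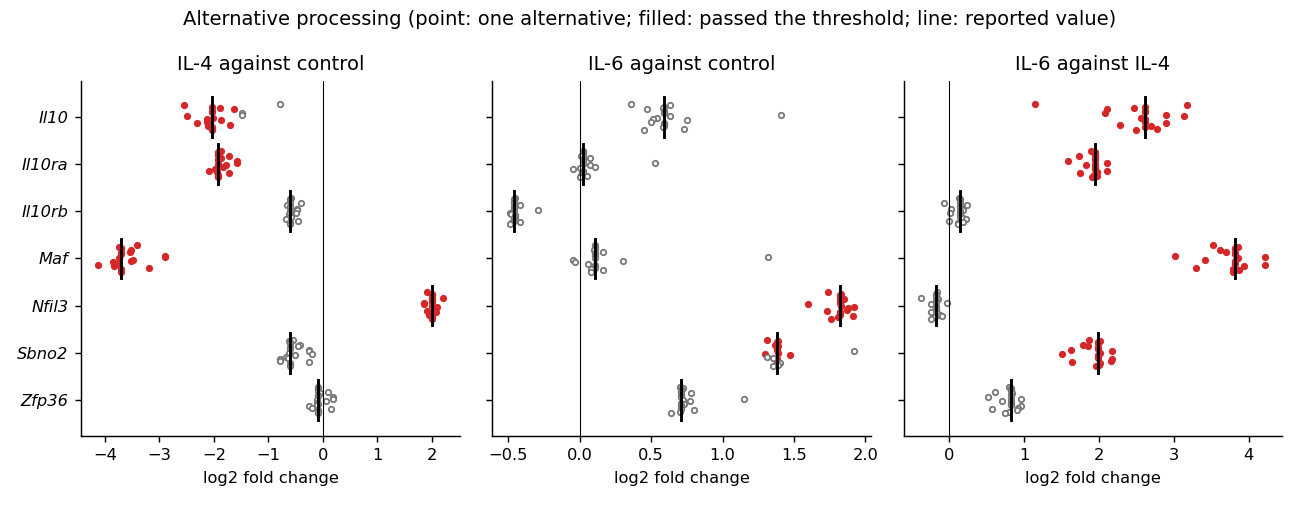
Log2 fold change of each gene (y axis) under each alternative way of processing (points, filled where the gene passed the threshold), with the reported value as a line, for the 3 comparisons. Il10ra, Maf and Nfil3 stay past the threshold at every point for IL-4 against control, while the points of Sbno2 for IL-6 against control are partly open.

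Downstream of the receptor, all 7 genes of the signalling list were tested, and the suppressors of cytokine signalling moved most. Socs3, which blocks gp130 and little of IL-10 signalling, had 74.7 to 85.5 FPKM in IL-6-treated and at most 3.23 FPKM in all other libraries (log2 fold change 5.12 against control, limma adjusted p = 3.02e-05). Socs1, an inhibitor of JAK kinases that IL-4 induces, had 21.3 to 31.2 FPKM with IL-4 and at most 1.72 FPKM elsewhere (4.20, limma adjusted p = 3.36e-06). Stat3 had 13.3, 10.5 and 11.6 FPKM in control and 29.7, 27.6 and 29.0 FPKM with IL-6 (1.29, limma adjusted p = 0.0274), and the call was lost with the set as a term (1.95, adjusted p = 0.0903). Inpp5d, the gene of the phosphatase SHIP1, which carries part of the IL-10 response, passed as lower with IL-4 (−1.30, limma adjusted p = 0.0164). It had 23.5, 21.4 and 9.78 FPKM there and 37.4 to 50.6 in control, and the call was lost without IL-4 #3 and when a set term was added. Jak1 and Tyk2 passed in none of the 3 comparisons. Their means in control, IL-4 and IL-6 were 42.7, 37.7 and 50.2 FPKM for Jak1 and 15.6, 11.2 and 16.2 FPKM for Tyk2. Between IL-6 and IL-4, 4 of the 7 passed, beside 20.4% of all genes, and 2 without IL-4 #3, Socs1 and Socs3.

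Other ligands and receptors of the IL-10 family were mostly silent. Of 11 such genes, 2 passed the filter, Il20rb and Ifnlr1, the chain that pairs with IL-10Rβ to bind type III interferons. Il20, Il22, Ifnl2 and Ifnl3 were at 0 in all 9 libraries. Ifnlr1 had 1.28, 1.08 and 1.24 FPKM in control, 0.294, 0.252 and 0.162 FPKM in IL-4- and 1.25, 1.74 and 1.92 FPKM in IL-6-treated Mϕs. It passed as lower with IL-4 (log2 fold change −1.97, limma adjusted p = 0.000755) and as higher in IL-6 than in IL-4 (2.37, limma adjusted p = 0.000206).

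Of 22 regulators of Il10 transcription, 21 were tested. With IL-4, 2 rose and 2 fell, beside 5.02% and 8.89% of all genes, with a list median of −0.20, equal to that of all genes. Bhlhe40, a repressor of Il10, rose from 10.2 to 60.8 FPKM (log2 fold change 2.52, limma adjusted p = 0.000159), and Fos, an AP-1 subunit, rose by 1.22 (adjusted p = 0.00577). Map3k8, the kinase TPL2, fell by 1.43 (adjusted p = 0.0162), and the other gene that fell was Prdm1, the gene of Blimp-1. With the set as a term, only Bhlhe40 of these 4 passed. With IL-6, 3 rose and 0 fell, beside 3.49% and 1.89% of all genes. The list median was 0.49, where that of all genes was 0.00. Those that rose were Fos (1.45, limma adjusted p = 0.00663), Cebpb (1.42, adjusted p = 0.0394) and Junb (1.32, adjusted p = 0.000777). Fos thus rose with both cytokines, and none of the 3 passed with the set as a term, where 187 of all genes passed in place of 690. Between IL-6 and IL-4, 6 were higher and 2 lower with IL-6, 4 in all without IL-4 #3. Of all genes, 13.6% were higher and 6.82% lower in the main fit. Bhlhe40 differed most there (−2.48, limma adjusted p = 0.000111), followed by Prdm1 (1.66) and Ahr (1.59).

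The 15 genes listed as IL-10-STAT3 effectors were all tested. With IL-6, 7 rose and 0 fell, beside 3.49% and 1.89% of all genes. The list median log2 fold change was 1.03, where that of all genes was 0.00. Ddit4, an inhibitor of mTORC1, had the largest rise, from 2.71 to 3.46 FPKM in control to 13.4 to 23.1 FPKM (2.49, limma adjusted p = 0.00069). It was followed by Timp1, a metalloproteinase inhibitor (2.31, adjusted p = 0.0191), and Slpi, an antiprotease (1.83, adjusted p = 0.00903). The others were Il4ra, Il21r, Bcl3 and Il1r2, and with the set as a term 2 of the 7 passed, Il4ra and Il21r. That term took the number of all genes passing with IL-6 from 690 to 187. With IL-4, 2 rose and 4 fell, beside 5.02% and 8.89% of all genes. The list median was −0.52, where that of all genes was −0.20. Cd163, the haemoglobin scavenger receptor, fell (−2.38, limma adjusted p = 0.00236), while Tnip3, an inhibitor of NF-κB activation (2.31, adjusted p = 0.000216), and Timp1 (2.27, adjusted p = 0.00859) rose. With the set as a term 4 of these 6 passed, Timp1 and Tnfrsf1b being lost, and 1111 of all genes passed in place of 1784. Between IL-6 and IL-4, 9 were higher and 1, Tnip3, lower with IL-6, led by Slpi (2.95), Il4ra (2.55) and Cd163 (2.53). Of all genes, 13.6% were higher and 6.82% lower there.

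Of 10 relatives of Maf, Nfil3, Sbno2 and Zfp36, 9 were tested. Of all genes, 5.02% rose and 8.89% fell with IL-4, and 3.49% rose and 1.89% fell with IL-6. With IL-4, 1 rose and 2 fell: Dbp, a bZIP activator that binds sites like those of Nfil3, and Zfp36l1, a paralog of Zfp36. Dbp had a mean of 15.3 FPKM in control and 2.47 FPKM with IL-4 (log2 fold change −2.58, limma adjusted p = 2.15e-05). Zfp36l1 had 32.9 and 8.93 FPKM (−1.88, limma adjusted p = 0.000796). Maff, a small Maf without an activation domain, rose with IL-4 (1.05, limma adjusted p = 0.00468) and was the only relative that rose with IL-6 (1.42, adjusted p = 0.00312). Both Maff calls were lost with the set as a term. Zfp36l1 (2.51) and Dbp (1.91) were higher in IL-6- than in IL-4-treated Mϕs.

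The known targets of tristetraprolin are mRNAs of cytokines, chemokines and early response genes. Of 16 targets, 12 were tested, and 6 rose and 0 fell with IL-6, beside 3.49% and 1.89% of all genes. The list median was 0.84, where that of all genes was 0.00. Il1b, the gene of the inflammatory cytokine IL-1β, had 3.76, 3.74 and 2.14 FPKM in control and 65.6, 69.5 and 79.6 FPKM with IL-6 (4.47, limma adjusted p = 4.98e-05). The neutrophil chemokine gene Cxcl3 (4.38, adjusted p = 0.000355) and the prostaglandin synthase gene Ptgs2 (3.68, adjusted p = 0.000385) followed, from control means of only 0.0463 and 0.146 FPKM. The others were Cxcl2, Tnf and Ier3, and Tnf and Ier3 were lost with the set as a term. With IL-4, 3 rose and 4 fell, beside 5.02% and 8.89% of all genes. The monocyte chemokine gene Ccl2 rose from 9.64 to 86.9 FPKM (3.00, limma adjusted p = 0.00173), and Ccl3 (−1.86, adjusted p = 0.000115) and Il1b (−1.54, adjusted p = 0.00303) fell. The set term left 5 of these 7, without Ccl4 and Plk3. Between IL-6 and IL-4, 7 targets were higher and 2 lower with IL-6, beside 13.6% and 6.82% of all genes. Il1b (6.01), Cxcl2 (4.77) and Cxcl3 (4.42) differed most there.

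Inflammatory genes that IL-10 is known to restrain were tested for 9 of 14 members, Il1b and Tnf being shared with the list of tristetraprolin targets. With IL-6, 3 rose and 0 fell, beside 3.49% and 1.89% of all genes. The 3 were Il1b, Tnf and the T-cell chemokine gene Ccl5 (2.93, limma adjusted p = 0.000191). With IL-4, 2 rose and 3 fell, beside 5.02% and 8.89% of all genes. The interferon-induced chemokine gene Cxcl10 fell from 4.28 to 0.126 FPKM (−4.29, limma adjusted p = 5.71e-05). The MHC class II gene H2-Ab1 (3.92, adjusted p = 2.49e-05) and its regulator Ciita (2.84, adjusted p = 0.0242) rose. Ciita had 32.9, 18.9 and 3.28 FPKM in IL-4 #1, #2 and #3 and 1.12 to 2.33 FPKM in control. Between IL-6 and IL-4, 6 were higher and 2 lower with IL-6, beside 13.6% and 6.82% of all genes. Il1b (6.01), Cxcl10 (4.77) and H2-Ab1 (−3.86) differed most. With the set as a term 7 of the 8 passed, Ciita being lost.

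**Figure D5:**
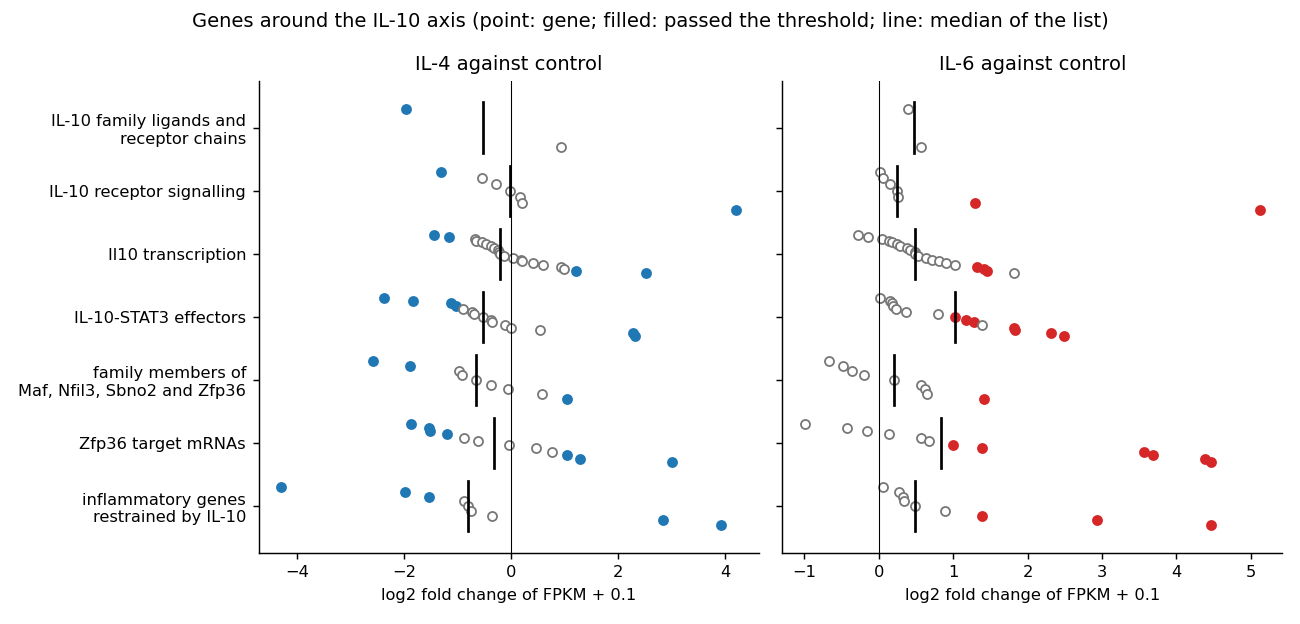
Log2 fold change of FPKM + 0.1 (x axis) of each tested gene of 7 lists around the IL-10 axis (y axis), filled where the gene passed the threshold and with a line at the list's median, for IL-4 and for IL-6 against control. With IL-6 no filled point lies below 0 in any list, while with IL-4 filled points lie on both sides in 6 of the 7 lists.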

How the data were processed

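The authors deposited FPKM, and the submitters' processing notes name STAR 2.4.2a and Cufflinks 2.2.1. The authors' filters on reads or genes are not stated. Of the 53379 identifiers, 94.8% matched GENCODE M21 (GRCm38) with their version, and coordinates and exon lengths are from M21. With these lengths, 100.0% of 141451 values under 1000 fragments were whole fragments within 0.05, which gave the depth of each library. Which program and annotation made the table was therefore not settled.

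Genes with a mean of at least 0.5 FPKM entered a fit of log2(FPKM + 0.1) in R 4.3.3 with limma 3.58.1, with the 3 groups in one model and the trend and robust options. The fit was run on simulated fragments with no outlying library and no division of libraries into sets. That run cannot show how the fit handles either. FPKM are not counts, so no count test served as the main one. Single genes also had an exact permutation test, and errors are SD over 3 libraries. Other steps used Python 3.11.15, numpy 2.4.6, pandas 2.3.3, scipy 1.17.1 and matplotlib 3.10.9.

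The 7 genes, the lists around them and the tests were chosen with earlier results of these data known. Named from each list are the 3 genes with the largest change among those that passed, all genes of the signalling list but 1, which is not reported here, and for each of the 7 genes the 3 others with the highest Pearson r over the 9 libraries. Remaining members named from lists were added after their values were seen.

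The alternatives were pseudocounts of 1 and 0.01, no filter or a mean of at least 5 FPKM, quantile normalization, median-ratio rescaling, a fit of just the compared groups, the library number as a block, the adjusted p alone, voom on the fragments, the set of libraries as a term, and leaving out each library. The planned set used 14 intestinal genes. One of them, Lyz1, is nearly identical to Lyz2 of Mϕs and placed the IL-6 libraries with the controls, so the set term in the text leaves Lyz1 out. This and removing each library's trend on GC content and length (natural splines, 5 degrees of freedom each) were added after seeing the data.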

Additional observations from a re-analysis of the deposited data

How the results depend on the processing

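The 21 log2 fold changes, the counts of the 7 genes and the counts of all genes were recomputed under 22 alternatives, giving 459 values for the single genes. Of these, 436 kept their direction and their side of the threshold. Il10 gave no value with a mean of at least 5 FPKM, since it falls below that filter. Il10ra, Maf and Nfil3 with IL-4, Nfil3 with IL-6, and Il10, Il10ra, Maf and Sbno2 between IL-6 and IL-4 passed wherever they gave a value. The Il10 call with IL-4 and the Sbno2 call with IL-6 were lost under the settings given with those genes. With the adjusted p alone, Il10rb with IL-4 and Zfp36 between IL-6 and IL-4 passed as well.

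Signs turned only for differences that passed under no setting. Il10ra with IL-6 ranged from −0.05 to 0.11 when single libraries were left out, and Maf with IL-6 from −0.03 to 0.30, with −0.05 after removing the trend on length and GC content. Il10rb between IL-6 and IL-4 ranged from −0.01 to 0.22 and was −0.07 with median-ratio rescaling. Zfp36 with IL-4 ranged from −0.25 to 0.15 and was 0.10 with median-ratio rescaling, 0.06 after removing that trend, and 0.19 with either set term. The cause was not tested.

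Of the 7 genes, 2 passed with IL-6 against control, and 1 passed when the set without Lyz1 was a term. Leaving out single libraries gave 1 to 2. The number of all genes passing with IL-4 moved from 1784 to 847 with a mean of at least 5 FPKM, where fewer genes were tested, to 3186 with the adjusted p alone, and to 1111 with either set term. For IL-6 it moved from 690 to 306, 1077 and, with the set without Lyz1, 187, and leaving out single libraries gave 387 to 1001, the highest without IL-4 #3. Between IL-6 and IL-4 it moved from 2613 to 1219 and 4375, and to 1564 with the set of 14 genes. Libraries of different groups share the numbers #1 to #3, and the deposited columns are marked m1 to m3 in every group. No source used here says that a number is the same mouse in each group. Deviations from the group means correlated between libraries #1, #2 and #3 at r of 0.521, −0.415 and 0.0777 for control and IL-4. For control and IL-6 r was 0.408, 0.201 and 0.166, and for IL-4 and IL-6 0.281, −0.0612 and 0.153. Among the 3 numbers of another group, a library's own number correlated best in 11 of 18 comparisons. These reuse the same 9 libraries and are not independent, so they cannot decide whether a number marks a mouse. With the number as a replicate block, 1788, 656 and 2734 genes passed, and the block changed no call of the 7 genes. Depth limits Il10, where IL-4 #2 had 3 fragments.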

Other observations

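The genes whose log2(FPKM + 0.1) followed each gene most closely over the 9 libraries are given as a description, since the libraries share groups, depth and scaling. Il10 was most like Eid1 (Pearson r = 0.984), Isg20 (0.983) and ENSMUSG00000101556.1 (0.979). Il10ra was most like Lpar6 (r = 0.997), Nuak1 (0.997) and Il17ra (0.996), and Maf like Nuak1 (0.998), Ms4a6c (0.996) and Pld2 (0.996). Nuak1 thus appears beside both genes. Il10rb was most like Dgkz (r = 0.994), Parp2 and Dele1. Nfil3 was most like Srgn (r = 0.987), Adora2b (0.980) and Cav1 (0.979). Sbno2 was most like Picalm (r = 0.996), Cpne2 (0.993) and Sipa1l1 (0.992), and Zfp36 like Timp3 (0.991), Skap2 (0.984) and Sema4a (0.981).

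Markers of further cell types were low beside those of Mϕs. The 8 T cell genes summed to 24.3 to 38.5 FPKM in control, 5.95 to 11.4 FPKM in IL-4- and 12.1 to 13.6 FPKM in IL-6-treated Mϕs. Of the 3 that were tested, Il2rb and Lck passed as higher and Cd28 as lower with IL-4, so the sum does not give their direction. The 6 dendritic cell genes summed to 5.36 to 6.34, 2.92 to 3.71 and 4.15 to 8.08 FPKM, the 18 skeletal muscle genes to 5.77 to 8.38, 2.0 to 11.2 and 9.46 to 16.2 FPKM, and the 6 fibroblast genes to at most 0.64 FPKM in any library. With Lyz1 included, the 14 Paneth and goblet cell genes summed to 57.4 to 72.3, 1.32 to 40.4 and 12.2 to 13.1 FPKM.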
